A study of Mus musculus with 12 samples.

Results

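Extracellular matrix genes encode the proteins that fill the space between cells and line blood vessels, together with the enzymes that cross-link and cut them. The genes described here are the measured collagens, laminins, lecticans, thrombospondins, latent TGF-beta binding proteins, lysyl oxidases, Adamts and Mmp proteases and Timp inhibitors, together with Fn1, Sparc, Dcn, Lum and Ogn. The rule that selects them uses gene symbols alone and no measured value, and it was set with earlier results of these data known. The rule found 96 genes among the 12394 genes measured. The data came from the hippocampal CA1 subfield of mice, whose pyramidal neurons are known for their sensitivity to a loss of blood flow. SUMO-KD mice carry a transgene that lowers SUMO, the small ubiquitin-like modifier that is attached to other proteins, and wild-type mice served as their controls. The samples formed 4 groups: SUMO-KD after ischemia, SUMO-KD after sham surgery, wild-type after ischemia and wild-type after sham surgery. Ischemia was a transient global loss of forebrain blood flow for 10 minutes, and CA1 was dissected at 3 hours of reperfusion. Each group had 3 samples, and each sample combined CA1 from 2 mouse brains. Samples are labelled as biological replicates, and the sources used here do not give the promoter that drives the transgene or the strain, sex and age of the mice. The layout asks which genes change after ischemia in each genotype and whether the knockdown alters that change.

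In brain, the matrix has several compartments. Lecticans are chondroitin sulfate proteoglycans that bind hyaluronan and form the perineuronal nets around some neurons. Collagen IV and laminins build the basement membrane of blood vessels. Fibrillar collagens, decorin and lumican are made mainly by fibroblasts of the meninges and the perivascular space. Adamts and Mmp proteases cut these proteins, Timp proteins inhibit the proteases, and lysyl oxidases cross-link collagen and elastin.

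RNA was measured on 12 Affymetrix arrays, as 1 linear intensity per probe set and array. Intensities of different probe sets do not compare the abundance of different genes, so each gene was compared only with itself across arrays. Differences are log2 changes of intensity + 32, on which a change of a dim gene appears smaller than it is, and a gene was called at a Benjamini-Hochberg adjusted p under 0.05 over all 12394 genes in limma's moderated test. All 96 genes were tested, and no detection filter was applied. Of these genes, 27 had a mean intensity under 32 over the 12 arrays, 29 lay between 32 and 100, 35 between 100 and 1000, and 5 at 1000 or above. Array medians ran from 141 to 162. The 18S ribosomal RNA control at its 5′ end read 1275 to 4127 on the 6 ischemia arrays and 4194 to 6528 on the 6 sham arrays, with no overlap. SUMO-KD ischemia replicate 2 was the high ischemia array, and the other 5 did not exceed 1660. The 3′ probe set of this control read 2829 to 6316 on the ischemia arrays and 5087 to 7569 on the sham arrays, and the middle one 968 to 2591 on the ischemia arrays and 2194 to 4162 on the sham arrays. This sign of RNA quality moved with ischemia, and its part in the ischemia results was not tested. Sumo3, a SUMO gene measured by a probe set of its own, averaged 1908 ± 28.3 in SUMO-KD and 3399.8 ± 139.9 in wild-type after ischemia, and 1560.2 ± 194 in SUMO-KD and 2343 ± 113 in wild-type after sham (SD, n = 3 each). Its log2 difference was -0.82 after ischemia (adjusted p = 0.00151) and -0.58 after sham (adjusted p = 0.0096), the direction the genotype labels give.

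After ischemia, Acan, Adamts1, Adamts5, Col4a1, Col4a2, Lamb3, Lamc1, Loxl1, Mmp19, Thbs1 and Timp1 rose in wild-type CA1, and Thbs4 fell. Among the 96 genes, 11 were called higher and 1 lower, which is 11.5% higher against 9.59% of all genes, and 1.04% lower against 8.88% of all genes. In SUMO-KD CA1, 8 genes were called higher (8.33%, against 6.08% of all genes) and 1 lower (1.04%, against 4.62%). Averaged over both genotypes, 12 were higher (12.5%, against 12.8%) and 2 lower (2.08%, against 14.0%). The share of matrix genes called higher therefore lay near the share of all genes in each of these comparisons, and the share called lower lay under it. Of the 96 genes, 27 had a mean intensity under 32 and 29 between 32 and 100. At such levels intensity + 32 leaves little room for a fall. With no offset or an offset of 16, no matrix gene was called lower in wild-type. The part of low levels in the share called lower was not tested. The median log2 change of the 96 genes was 0.09 in wild-type and 0.05 in SUMO-KD, beside -0.04 in wild-type and -0.02 in SUMO-KD over all genes. The wild-type and SUMO-KD comparisons use separate arrays but share 1 estimate of the spread, and their mean is not independent of either.

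**Figure D1:**
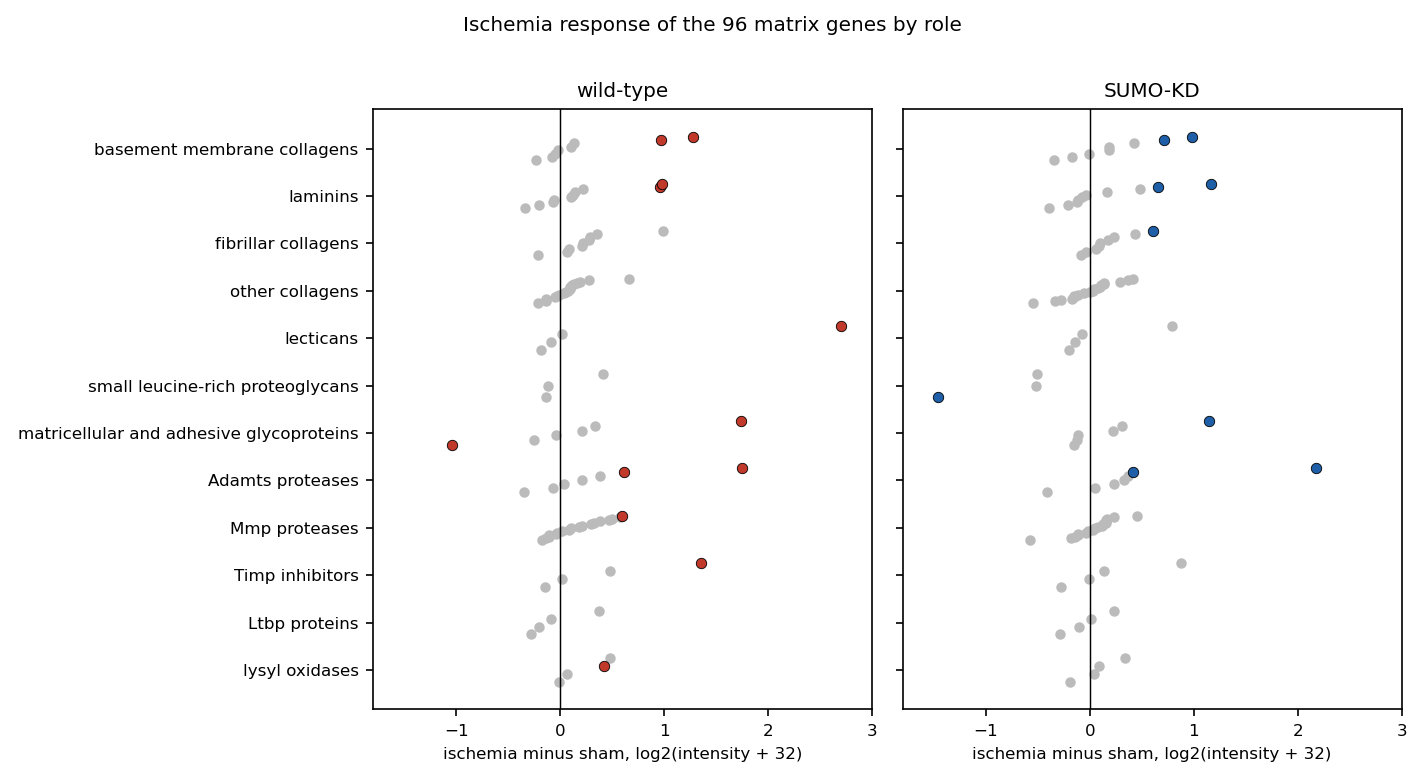
Log2 change of intensity + 32, ischemia minus sham, of the 96 matrix genes grouped by role, with wild-type in the left panel and SUMO-KD in the right panel. Each point is 1 gene, coloured points passed the adjusted p threshold and grey points did not. Most genes lie near 0, and the called rises are spread over lecticans, Adamts proteases, basement membrane collagens, laminins and thrombospondins among others, with the highest wild-type change at 2.70 (Acan).

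Collagen IV and laminin chains of the basement membrane were among the genes that rose in both genotypes. Col4a1 and Col4a2 encode the collagen IV chains found in nearly all basement membranes, and they were the 2 called genes among 8 basement membrane collagens in each genotype. Col4a1 read 1139, 1094 and 1187 on the wild-type ischemia arrays and 409.5, 622 and 358 on the wild-type sham arrays. In SUMO-KD it read 1023, 994 and 1036 after ischemia and 528, 399.5 and 585 after sham. All ischemia arrays lay above all sham arrays of their genotype, by a log2 change of 1.28 (SE 0.18, adjusted p = 0.000588) in wild-type and 0.99 (SE 0.18, adjusted p = 0.00449) in SUMO-KD. Col4a2 read 586, 489 and 591 after ischemia and 256, 292 and 252 after sham in wild-type, and 480.4, 578 and 592 after ischemia and 351, 274 and 346 after sham in SUMO-KD. Its groups did not overlap either, and it rose by 0.97 (SE 0.12, adjusted p = 0.000314) in wild-type and 0.71 (SE 0.12, adjusted p = 0.00358) in SUMO-KD. The other 6 basement membrane collagens were not called in either genotype. A second Col4a1 probe set changed less, by 0.51 in wild-type (adjusted p over probe sets = 0.0464) and 0.43 in SUMO-KD (adjusted p = 0.12).

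The 2 collagen IV genes are neighbours on opposite strands of chromosome 8, with starts 21 bases apart, and their promoter windows share 78 bases. A window here is the 250 bases before to 50 bases after a RefSeq gene start in GRCm38.p6. Among 32851 such windows, 5.55% held the letters of an Egr site (GCGNGGGCG, both strands searched), and 12.2% of the 74 windows of matrix genes did. Of the 15 genes called higher after ischemia in any comparison, 9 had a window, and of those only Col4a1 and Col4a2 held it. The shared stretch, at chr8:11312798-11312826 on the + strand, is shown because 1 copy of the motif (in capitals) lies in the windows of both genes. The match is a description of letters, and no binding was measured.
Col4a1 and Col4a2: cctcggcagtGCGCGGGCGgcgtctccaa

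Among 10 laminin chains, Lamb3 and Lamc1 rose in both genotypes. Lamc1, the gamma chain shared by most laminins of vessels, read 335, 311 and 442 after ischemia and 132, 182 and 188 after sham in wild-type, and 223, 315 and 317 after ischemia and 128, 187 and 196 after sham in SUMO-KD. It rose by 0.98 (SE 0.19, adjusted p = 0.00403) in wild-type and 0.65 (SE 0.19, adjusted p = 0.0465) in SUMO-KD, with no overlap of the groups. The SUMO-KD call was lost when any one of 9 arrays was left out, with a log2 change of 0.49 to 0.80 over the 12 omissions and an adjusted p up to 0.162. Only the omission of replicate 1 of wild-type sham, replicate 3 of wild-type ischemia or replicate 1 of SUMO-KD ischemia kept it. Lamb3, a beta chain known best from epithelial basement membranes, was dim in sham CA1. It read 70.1, 49.7 and 84.5 after ischemia and 12.8, 25.2 and 19.8 after sham in wild-type, and 120.5, 87.3 and 114 after ischemia and 28.8, 25.7 and 34.8 after sham in SUMO-KD. Every ischemia array exceeded every sham array, by 0.96 (SE 0.15, adjusted p = 0.00107) in wild-type and 1.17 (SE 0.15, adjusted p = 0.000431) in SUMO-KD. Lamb2, a beta chain of vascular and synaptic laminins, was called lower only in the mean of both genotypes, at -0.30 (adjusted p = 0.0275), and that call was lost without replicate 2 or 3 of wild-type sham, replicate 3 of wild-type ischemia or replicate 2 or 3 of SUMO-KD ischemia (adjusted p up to 0.0643). Markers of other cells were read beside these genes. Of 9 endothelial markers, 2 were called higher and 2 lower in wild-type, and their summed intensity was 3672 to 4432 after ischemia and 4607 to 4845 after sham. In SUMO-KD, 1 endothelial marker was higher and 2 were lower, with sums of 3538 to 3763 after ischemia and 4026 to 4883 after sham. Of 8 pericyte and smooth muscle markers none was called in wild-type, with sums of 2696 to 2951 after ischemia and 3068 to 3282 after sham. In SUMO-KD, Cspg4, also a marker of the oligodendrocyte lineage, was called lower at -0.45 (adjusted p = 0.0295). The pericyte and smooth muscle sums there were 2519 to 2640 after ischemia and 2567 to 2975 after sham. In the mean of both genotypes, Rgs5 at -0.21 (adjusted p = 0.0481) and Cspg4 at -0.33 (adjusted p = 0.0121) were called lower. Tagln was called higher in that mean at 0.37 (adjusted p = 0.022). Of 7 oligodendrocyte lineage markers, Pdgfra was called lower in wild-type, and Pdgfra and Cspg4 were called lower in SUMO-KD and in the mean. The others of that list were not called for ischemia. Of 6 microglia markers, 4 were called lower in each genotype, with sums of 3070 to 3331 after ischemia and 4322 to 4645 after sham in wild-type, and 3048 to 3434 after ischemia and 4208 to 4500 after sham in SUMO-KD. In wild-type, Gfap was the only 1 of 7 astrocyte markers called, higher at 0.77 (adjusted p = 0.00215). Of 3 dentate gyrus markers, Prox1 was called higher in wild-type at 1.03 (adjusted p = 0.00473). Dsp at -0.22 and Tdo2 at -0.33 were not called there. In the mean of both genotypes, Prox1 was higher at 0.62 (adjusted p = 0.00792). Dsp and Tdo2 were lower in that mean, at -0.48 and -0.49 (adjusted p = 0.0365 and 0.031). Of 2 CA1 markers, Wfs1 was called lower in wild-type at -0.60 (adjusted p = 0.0206), and Man1a at -0.48 was not called. In SUMO-KD neither was called, with Wfs1 at -0.05 (adjusted p = 0.887) and Man1a at 0.41 (adjusted p = 0.179). Wfs1 was called lower in the mean of both genotypes at -0.33 (adjusted p = 0.047). None of 6 neuron markers was called in either genotype alone, with sums of 16213 to 19457 after ischemia and 20355 to 23482 after sham in wild-type, which did not overlap. The SUMO-KD neuron sums overlapped, at 17455 to 20492 after ischemia and 18001 to 20673 after sham. In the mean of both genotypes, the neuron marker Stmn2 was called lower at -0.33 (adjusted p = 0.0284). The part of these cells in the ischemia results was not tested. In whole tissue, fewer cells of a type and less RNA per cell cannot be told apart.

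Aggrecan (Acan), the lectican characteristic of perineuronal nets, had the largest rise of the 96 genes in wild-type. It read 1257, 546 and 1701 after ischemia and 130.0, 163 and 118 after sham in wild-type CA1. In SUMO-KD CA1 it read 230.0, 239 and 252 after ischemia and 138, 133 and 108 after sham. The ischemia arrays lay above the sham arrays in both genotypes, and every wild-type ischemia array exceeded every SUMO-KD ischemia array. Acan rose by 2.70 (SE 0.30, adjusted p = 0.00014) in wild-type, while the change of 0.79 (SE 0.30, adjusted p = 0.129) in SUMO-KD did not pass. That SUMO-KD change, of unaltered size, passed without replicate 2 of wild-type ischemia (adjusted p = 0.00543) and when only the compared groups were fitted (adjusted p = 0.00615). The other 3 lecticans, brevican (Bcan), neurocan (Ncan) and versican (Vcan), were not called in any comparison. In wild-type, Bcan averaged 615 ± 95.2 after ischemia and 651 ± 20.2 after sham. Ncan averaged 1679.8 ± 24 after ischemia and 1654 ± 16.9 after sham, and Vcan 217 ± 5.26 after ischemia and 254 ± 41.9 after sham (SD, n = 3 each). Their log2 changes in wild-type were -0.09 for Bcan (95% interval -0.41 to 0.24), 0.02 for Ncan (-0.14 to 0.18) and -0.19 for Vcan (-0.47 to 0.09). In SUMO-KD they were -0.20 for Bcan, -0.07 for Ncan and -0.14 for Vcan. A further Vcan probe set was lower in wild-type at -0.64 (adjusted p over probe sets = 0.0115) and at 0.00 in SUMO-KD. In wild-type this probe set and the one used here were both lower, by unlike amounts. With the mean of probe sets, Vcan was called lower in wild-type at -0.34 (limma adjusted p = 0.047).

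**Figure D2:**
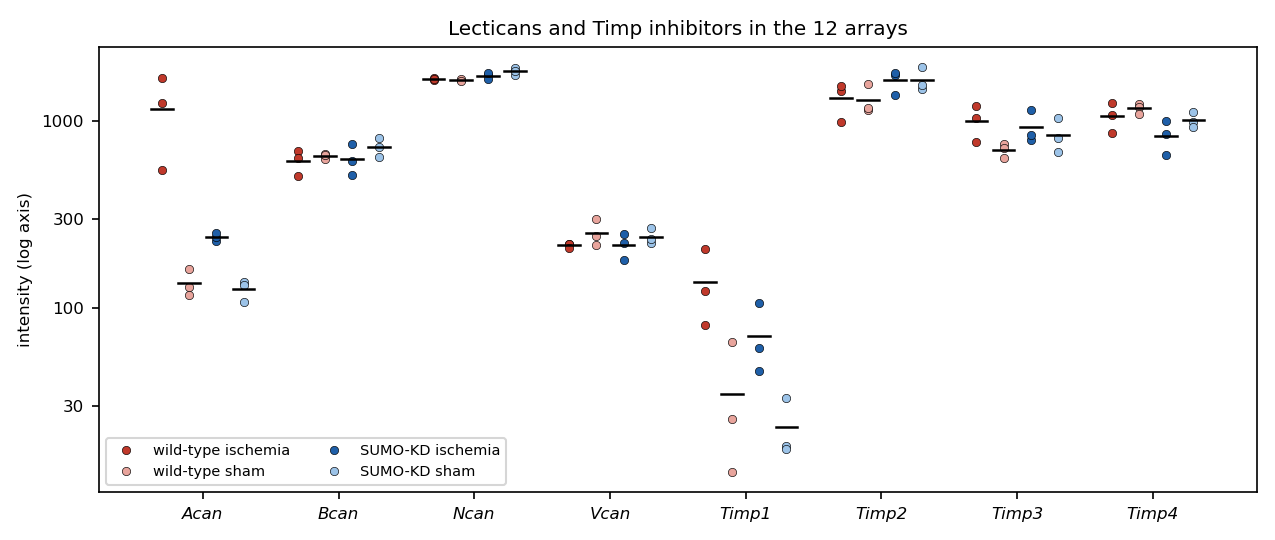
Intensity (log axis) of the 4 lecticans and 4 Timp inhibitors on the 12 arrays. Points are arrays, lines are means of the 3 arrays, and within each gene the groups run wild-type ischemia, wild-type sham, SUMO-KD ischemia and SUMO-KD sham. Acan and Timp1 separate ischemia from sham, and Timp3 does so in wild-type, while the other 5 genes show little separation; heights of different genes do not compare their abundance.

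Of the Timp inhibitors only Timp1, known as the inducible member of the family, was called for ischemia. It read 124, 81.8 and 208 after ischemia and 25.8, 65.8 and 13.3 after sham in wild-type, and 46.1, 107 and 61.2 after ischemia and 18.4, 33.1 and 17.7 after sham in SUMO-KD. The groups did not overlap in either genotype. Timp1 rose by 1.35 (SE 0.32, adjusted p = 0.0136) in wild-type, and the change in SUMO-KD was 0.88 (SE 0.32, adjusted p = 0.112). The wild-type call was lost without replicate 3 of wild-type sham (1.11, adjusted p = 0.0553) or replicate 3 of wild-type ischemia (1.07, adjusted p = 0.0526). The mean over both genotypes, 1.11 (SE 0.23, adjusted p = 0.00376), was called under every omission. Timp2 changed by 0.02 in wild-type (95% interval -0.40 to 0.43) and -0.01 in SUMO-KD (-0.42 to 0.40), and Timp4 by -0.15 in wild-type (-0.49 to 0.19) and -0.28 in SUMO-KD (-0.62 to 0.06). Timp3, which binds to the matrix, averaged 1007 ± 218 after ischemia and 702 ± 62 after sham in wild-type (SD, n = 3 each) with no overlap but without passing, at 0.48 (SE 0.19, adjusted p = 0.107). It passed without replicate 1 of wild-type ischemia (0.66, adjusted p = 0.0458).

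Of the measured proteases, Adamts1 and Adamts5 rose in both genotypes. Adamts1 and Adamts5 both cut lecticans, and they were the called genes in each genotype among 7 measured Adamts genes. Adamts1 read 1224, 1603 and 1169 after ischemia and 336, 457 and 326 after sham in wild-type, and 1885, 1384 and 1819.7 after ischemia and 359, 339.8 and 346 after sham in SUMO-KD. The gap between groups was wider than the range within any group, and the rise was 1.75 (SE 0.16, adjusted p = 3.38e-05) in wild-type and 2.17 (SE 0.16, adjusted p = 1.14e-05) in SUMO-KD, the largest among the 96 genes in SUMO-KD. Adamts5, its neighbour on chromosome 16, read 53.9, 70.6 and 83.4 after ischemia and 34.6, 39.4 and 27.1 after sham in wild-type, and 70.6, 65.6 and 70 after ischemia and 39.6, 43.6 and 47.1 after sham in SUMO-KD. The groups were separate, and Adamts5 rose by 0.62 (SE 0.11, adjusted p = 0.00319) in wild-type and 0.42 (SE 0.11, adjusted p = 0.0367) in SUMO-KD. The SUMO-KD call was lost without any one SUMO-KD array, replicate 1 of wild-type sham or replicate 2 of wild-type ischemia (adjusted p up to 0.12). A second Adamts5 probe set was not called in wild-type, at 0.15 (adjusted p over probe sets = 0.509). Adamts4, also a lectican-cutting enzyme, averaged 210.2 ± 25.7 after ischemia and 223 ± 33.4 after sham in wild-type (SD, n = 3 each), a log2 change of -0.07 (95% interval -0.42 to 0.27). Adamts7, at 1.17 to 22.0 on all wild-type arrays, passed only in the mean of both genotypes at 0.31 (adjusted p = 0.0449), and that call survived only the omission of replicate 1 or 2 of wild-type ischemia or replicate 2 of SUMO-KD ischemia (adjusted p up to 0.0931).

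Few matrix metalloproteinases were called at 3 hours, and many were dim. Of 18 measured, only Mmp19 was called in wild-type (5.56% higher, against 9.59% of all genes) and none in SUMO-KD. By limma without adjustment, 6 of the 18 had p under 0.05 in wild-type (33.3%, against 31.3% of all genes). In SUMO-KD, 2 did (11.1%, against 24.1%). The 9 on chromosome 9 had mean intensities of 5.40 to 22.2, where a change appears smaller than it is. Mmp19 was dim throughout, at 15.9, 16.5 and 41.2 after ischemia and 7.05, 0.886 and 6.21 after sham in wild-type, and 7.06, 18 and 24.3 after ischemia and 12.8, 7.92 and 16.3 after sham in SUMO-KD. The wild-type groups were separate and the SUMO-KD groups overlapped, with changes of 0.60 (SE 0.18, adjusted p = 0.0372) in wild-type and 0.12 (SE 0.18, adjusted p = 0.766) in SUMO-KD. Without replicate 3 of wild-type ischemia the wild-type change was 0.40 (adjusted p = 0.118), and the call was also lost without any one wild-type sham array or replicate 1 of SUMO-KD sham (adjusted p up to 0.108). A second Mmp19 probe set pointed the other way at -0.37 (adjusted p over probe sets = 0.231). The gelatinase Mmp9, often studied for its part in opening the blood-brain barrier, read 67.3, 52.7 and 65 after ischemia and 29.6, 42.1 and 31 after sham in wild-type, and 28.5, 78.9 and 41.9 after ischemia and 65.4, 46.7 and 61.3 after sham in SUMO-KD. Its wild-type groups did not overlap, but neither change passed, at 0.50 (SE 0.19, adjusted p = 0.0878) in wild-type and -0.18 (SE 0.19, adjusted p = 0.643) in SUMO-KD. The wild-type change of Mmp9 passed without replicate 1 or 2 of SUMO-KD ischemia (adjusted p = 0.0468 and 0.0195), with the compared groups alone (0.0339) and with array weights (0.0429). The gelatinase Mmp2 and its membrane-bound activator Mmp14 had wild-type changes of 0.02 (95% interval -0.42 to 0.45) and -0.03 (-0.35 to 0.29). Mmp17, another membrane-bound enzyme, averaged 1191 ± 104 after ischemia and 1346 ± 41.2 after sham in wild-type (SD, n = 3 each), a change of -0.18 (SE 0.12, adjusted p = 0.349).

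Chromosome 9 holds 9 of the Mmp genes, and all of these were dim, with mean intensities of 5.40 to 22.2. Their promoters are known for AP-1 sites. The AP-1 letters TGANTCA (both strands) were in 7.81% of all 32851 windows and in 13.5% of the 74 matrix gene windows, which belonged to Col6a1, Ltbp3, Mmp1a, Mmp1b, Mmp3, Mmp7, Mmp10, Mmp12, Mmp13 and Mmp20. None of the 9 ischemia-raised genes with a window held it there. Windows of 3 of the Mmp genes are shown around the motif (in capitals), because they carry AP-1 letters in genes that stayed dim and uncalled. They are on the + strand of chromosome 9, at chr9:7272455-7272509 for Mmp13, chr9:7502255-7502309 for Mmp10 and chr9:7445752-7445806 for Mmp3, and the motif starts 35, 63 and 46 bases before the gene start.
Mmp13: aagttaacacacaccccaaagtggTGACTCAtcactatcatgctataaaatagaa
Mmp10: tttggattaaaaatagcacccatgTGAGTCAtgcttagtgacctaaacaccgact
Mmp3: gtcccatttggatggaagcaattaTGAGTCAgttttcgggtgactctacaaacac

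Thrombospondins are secreted glycoproteins that regulate vessels, TGF-beta and synapse formation, and 2 of them moved in opposite directions in wild-type. Thbs1 read 132, 186 and 172 after ischemia and 21, 37.3 and 21.1 after sham in wild-type, and 127, 82.7 and 111 after ischemia and 25.8, 38.5 and 27 after sham in SUMO-KD. The lowest ischemia array was above the highest sham array in each genotype, and the rise was 1.74 (SE 0.16, adjusted p = 3.42e-05) in wild-type and 1.15 (SE 0.16, adjusted p = 0.000871) in SUMO-KD. A second Thbs1 probe set also rose, by 0.65 in wild-type (adjusted p over probe sets = 0.0114) and 0.77 in SUMO-KD (adjusted p = 0.00761). Thbs4 read 123, 225 and 60.5 after ischemia and 285, 257 and 317 after sham in wild-type, and 265, 182 and 159.7 after ischemia and 139.6, 287 and 250.1 after sham in SUMO-KD. It fell in wild-type, at -1.04 (SE 0.33, adjusted p = 0.0484), with no overlap, while the SUMO-KD groups overlapped at -0.11 (SE 0.33, adjusted p = 0.889). The wild-type call rested on few arrays: it was kept only without replicate 2 of wild-type ischemia or replicate 1 of SUMO-KD sham, and without replicate 3 of wild-type ischemia the change was -0.67 (adjusted p = 0.159). Thbs3 was called only in the mean of both genotypes, at 0.32 (adjusted p = 0.0362), a call kept only without replicate 3 of wild-type sham, replicate 2 of wild-type ischemia, replicate 1 of SUMO-KD sham or replicate 2 of SUMO-KD ischemia (adjusted p up to 0.0863). Sparc, a collagen-binding glycoprotein of vessels and glia, averaged 2468 ± 249.7 after ischemia and 2537 ± 180.0 after sham in wild-type, and 2381 ± 104 after ischemia and 2609 ± 368 after sham in SUMO-KD (SD, n = 3 each). Its change was -0.04 in wild-type (95% interval -0.29 to 0.21) and -0.12 in SUMO-KD (-0.37 to 0.13). Fibronectin (Fn1) had changes of -0.25 (SE 0.14, adjusted p = 0.255) in wild-type and -0.15 (SE 0.14, adjusted p = 0.577) in SUMO-KD.

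**Figure D3:**
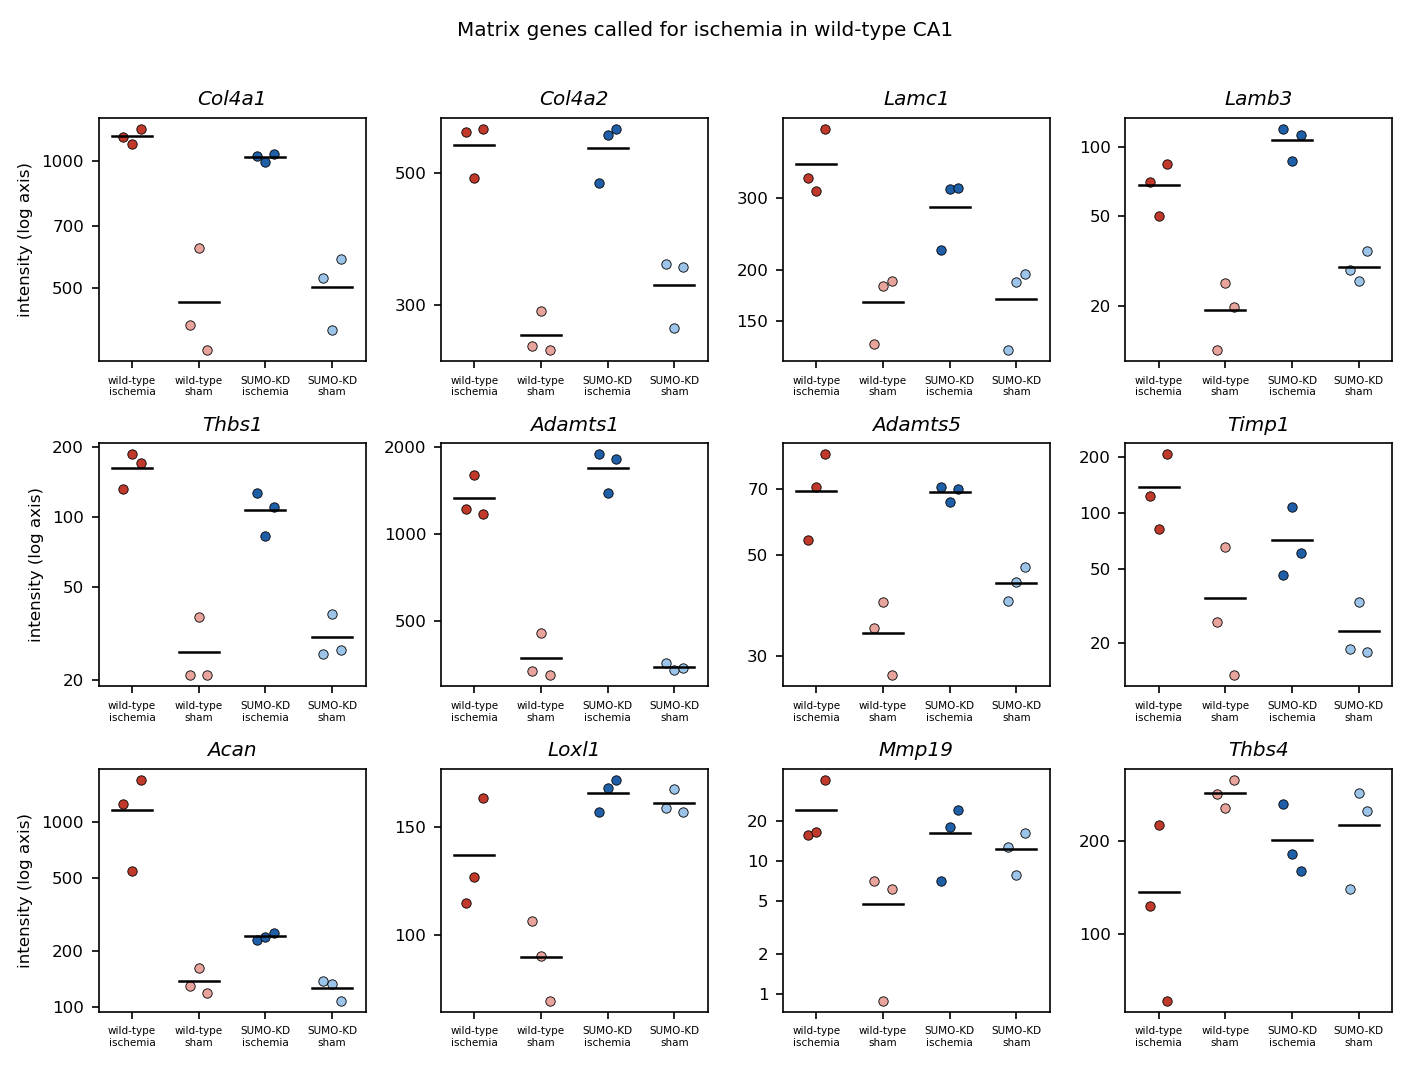
Intensity (log axis) on each array of the 12 matrix genes called for ischemia in wild-type. Points are arrays and lines are means of the 3 arrays, with ischemia left of sham in wild-type (red) and SUMO-KD (blue). In wild-type the ischemia arrays lie above sham for 11 genes and under sham for Thbs4, and for Loxl1, Mmp19 and Thbs4 the SUMO-KD groups overlap.

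None of 9 fibrillar collagens was called in wild-type. Col3a1 read 109, 58.8 and 189 after ischemia and 32.4, 50.5 and 36.4 after sham in wild-type, and 40.3, 96.6 and 45.1 after ischemia and 24.2, 57 and 85.8 after sham in SUMO-KD. Its wild-type groups were separate, but the change of 0.99 (SE 0.34, adjusted p = 0.0655) did not pass. It passed without replicate 2 of wild-type ischemia (1.31, adjusted p = 0.023), and with dim genes left out (0.046), quantile normalization (0.0397) or trend and robust eBayes (0.0446) as adjusted p. Col1a1 and Col1a2, the chains of collagen I, had wild-type changes of -0.21 (95% interval -0.76 to 0.34) and 0.22 (-0.74 to 1.18). Fibroblast genes varied between arrays within groups: Col1a2 read 169, 168 and 475 after ischemia and 221, 178 and 209 after sham in wild-type, and decorin (Dcn) 464, 386 and 839.9 after ischemia and 379.8, 334 and 476 after sham. Among the wild-type arrays, ischemia replicate 3 was the high one for Col1a2, Col3a1 and Dcn. In SUMO-KD, Dcn read 191, 398 and 419 after ischemia and 263, 424 and 905 after sham. The sum of 9 fibroblast markers, which include Col1a1, Col1a2, Dcn and Lum, was 1833 to 3811 after ischemia and 2595 to 2788 after sham in wild-type, and 1706 to 2959 after ischemia and 2226 to 4205 after sham in SUMO-KD. Of these markers Pdgfra, also a marker of the oligodendrocyte lineage, was called lower after ischemia, at -1.06 in wild-type (adjusted p = 0.000325) and -1.24 in SUMO-KD (adjusted p = 0.000161). Their part in the collagen values was not tested. Col11a1, a minor fibrillar chain, read 130.1, 122 and 108 after ischemia and 76.5, 73 and 54.8 after sham in SUMO-KD, and 136, 141 and 128 after ischemia and 129, 179 and 88.7 after sham in wild-type. It rose in SUMO-KD by 0.61 (SE 0.17, adjusted p = 0.0403), a call kept only without replicate 2 or 3 of wild-type sham or replicate 3 of wild-type ischemia (adjusted p up to 0.137). Col5a1, which nucleates collagen fibrils, passed only in the mean of both genotypes at 0.36 (adjusted p = 0.0472), a call kept only without replicate 3 of wild-type sham, replicate 1 of wild-type ischemia or replicate 3 of SUMO-KD sham (adjusted p up to 0.11). None of the 19 other collagens and none of 4 latent TGF-beta binding proteins was called for ischemia, and Ltbp3 changed by -0.28 (SE 0.19, adjusted p = 0.348) in wild-type. Without replicate 3 of wild-type ischemia, Ltbp3 was called lower in wild-type at -0.52 (adjusted p = 0.0366) and in the mean of both genotypes at -0.41 (adjusted p = 0.0117).

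The genotype comparisons called 7 matrix genes, of which Acan, Loxl1 and Ogn were also called for ischemia. In sham CA1, 6 of the 96 genes were called higher in SUMO-KD (6.25%, against 1.5% of all genes) and none lower (0.597% of all genes). By limma without adjustment, 15 of the 96 had p under 0.05 (15.6%, against 14.2% of all genes). After ischemia, 5 were called higher in SUMO-KD (5.21%, against 1.0% of all genes) and 1 lower (1.04%, against 0.557% of all genes). Over all genes the split after ischemia was 124 higher and 69 lower, and it moved to 112 and 98 when each array was centred on its median. All arrays of the genotype comparisons also enter the ischemia comparisons, so the 2 kinds of comparison share samples. The genes called higher in SUMO-KD in both surgeries were Lox, Ogn, Col6a1, Ltbp2 and Col22a1, and Loxl1 was called in sham only.

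Lox, the enzyme that starts the cross-linking of collagen and elastin, read 365, 301 and 353 in SUMO-KD and 30.7, 62.2 and 46.1 in wild-type after sham. After ischemia it read 330.1, 567 and 445 in SUMO-KD and 55.2, 63.9 and 117 in wild-type. Every SUMO-KD array lay above every wild-type array, with differences of 2.26 (SE 0.23, adjusted p = 0.000447) after sham and 2.13 (SE 0.23, adjusted p = 0.000998) after ischemia. Of 2 other Lox probe sets, 1 was higher in SUMO-KD by 1.19 after sham (adjusted p over probe sets = 0.0314) and 2.15 after ischemia (adjusted p = 0.00139), and 1 was dim, with group means of 10.8 to 13.2, and differed by 0.06 after sham. Lox was not called for ischemia. Its rise in the mean of both genotypes passed without replicate 1 of SUMO-KD ischemia (0.50, adjusted p = 0.0365). That rise also passed with quantile normalization (0.40, 0.0488), array weights (0.43, 0.0302) and the mean of probe sets (0.33, 0.0211). Loxl1, a related oxidase that acts mainly on elastin, read 161, 173 and 158 in SUMO-KD and 105, 92.6 and 78.2 in wild-type after sham, and 159, 173 and 179 in SUMO-KD and 113, 125 and 167 in wild-type after ischemia. The sham groups were separate and the ischemia groups overlapped, with differences of 0.67 (SE 0.12, adjusted p = 0.0172) after sham and 0.29 (SE 0.12, adjusted p = 0.286) after ischemia. Loxl1 also rose after ischemia in wild-type by 0.42 (SE 0.12, adjusted p = 0.0352), while the SUMO-KD change was 0.04 (SE 0.12, adjusted p = 0.885). Its sham difference passed only narrowly, since the omission of any one SUMO-KD sham array or of replicate 2 or 3 of wild-type sham raised the adjusted p to between 0.0555 and 0.0607. The wild-type ischemia call of Loxl1 was lost without replicate 2 or 3 of wild-type sham or replicate 2 or 3 of wild-type ischemia (adjusted p up to 0.128).

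**Figure D4:**
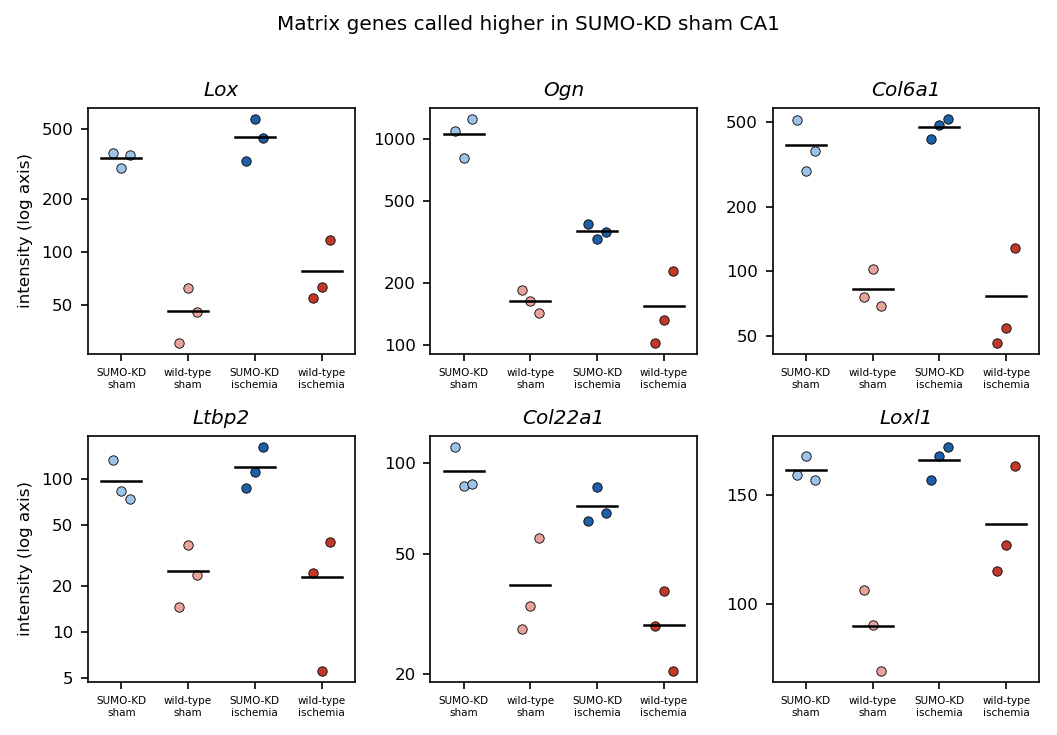
Intensity on each array (log axis) of the 6 matrix genes called higher in SUMO-KD after sham. Points are arrays and lines are means of the 3 arrays, with SUMO-KD left of wild-type, first after sham and then after ischemia. For Lox, Ogn, Col6a1, Ltbp2 and Col22a1 every SUMO-KD array lies above every wild-type array of the same surgery, and for Loxl1 this holds after sham.

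Osteoglycin (Ogn), a small leucine-rich proteoglycan that binds collagen fibrils, differed by genotype and by surgery. It read 1092, 806 and 1239.8 in SUMO-KD and 185, 164 and 144 in wild-type after sham, and 388, 326 and 354 in SUMO-KD and 103, 133 and 229 in wild-type after ischemia. SUMO-KD arrays were higher in both surgeries without overlap, by 2.44 (SE 0.22, adjusted p = 0.000184) after sham and 1.11 (SE 0.22, adjusted p = 0.0294) after ischemia. The second of these calls was lost without any one SUMO-KD ischemia array or replicate 1 or 2 of wild-type ischemia (adjusted p up to 0.112). Within SUMO-KD, Ogn fell after ischemia, at -1.46 (SE 0.22, adjusted p = 0.00145), and the wild-type change was -0.12 (SE 0.22, adjusted p = 0.766). A second Ogn probe set was higher in SUMO-KD after sham by 2.08 (adjusted p over probe sets = 0.00248), fell in SUMO-KD after ischemia at -1.13 (adjusted p = 0.0221), and differed by 1.25 after ischemia (adjusted p = 0.0516). Dcn and Lum, the other 2 proteoglycans of this class and neighbours on chromosome 10, were not called, with sham differences of 0.24 (SE 0.41, adjusted p = 0.847) for Dcn and 0.23 (SE 0.23, adjusted p = 0.726) for Lum.

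Col6a1, a chain of the microfibrillar collagen VI, read 507, 293 and 365 in SUMO-KD and 75.6, 103 and 68.8 in wild-type after sham. After ischemia it read 416, 484 and 512 in SUMO-KD and 46.4, 54.4 and 129 in wild-type. The genotypes were separate in both surgeries, by 1.86 (SE 0.26, adjusted p = 0.00299) after sham and 2.28 (SE 0.26, adjusted p = 0.00116) after ischemia. Col6a2, the partner chain whose gene lies beside Col6a1 on chromosome 10, read 273, 122 and 155 in SUMO-KD and 18.6, 133 and 75.4 in wild-type after sham, where the groups overlapped, and 186, 296 and 261 in SUMO-KD and 106, 117 and 142 in wild-type after ischemia, where they did not. It was not called, at 1.10 (SE 0.37, adjusted p = 0.187) after sham and 0.85 (SE 0.37, adjusted p = 0.294) after ischemia, and its mention here was chosen after its values were seen. Of the 6 genes called higher in SUMO-KD, 3 had a promoter window. The Col6a1 window held AP-1 letters (in capitals), starting 90 bases before the gene start at chr10:76726104-76726158 on the − strand, and is shown as the only one of the 3 with this motif.
Col6a1: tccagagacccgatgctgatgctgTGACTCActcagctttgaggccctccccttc

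Ltbp2, an elastic fibre protein of the latent TGF-beta binding family, read 133, 83.5 and 74.2 in SUMO-KD and 14.5, 37 and 23.7 in wild-type after sham, and 87.1, 111 and 161 in SUMO-KD and 24.1, 5.59 and 38.5 in wild-type after ischemia. The groups were separate in both surgeries, by 1.17 (SE 0.26, adjusted p = 0.0426) after sham and 1.49 (SE 0.26, adjusted p = 0.016) after ischemia. The sham call was kept only without replicate 2 or 3 of wild-type ischemia or replicate 1 or 3 of SUMO-KD ischemia (adjusted p up to 0.167 in the other omissions), and the ischemia call was lost without replicate 1 of wild-type ischemia or replicate 3 of SUMO-KD ischemia (adjusted p up to 0.0796). Col22a1, a collagen of tissue junctions, read 112, 83.6 and 85.3 in SUMO-KD and 28.3, 33.7 and 56.5 in wild-type after sham, and 64.2, 82.8 and 68.4 in SUMO-KD and 28.9, 37.6 and 20.6 in wild-type after ischemia. SUMO-KD was higher on every array, by 0.83 (SE 0.16, adjusted p = 0.0214) after sham and 0.77 (SE 0.16, adjusted p = 0.0356) after ischemia. The sham call was lost without replicate 1 or 2 of wild-type sham or replicate 1 or 3 of SUMO-KD sham (adjusted p up to 0.109). The ischemia call was lost without any one SUMO-KD ischemia array, replicate 1 or 3 of wild-type ischemia or replicate 2 or 3 of SUMO-KD sham (adjusted p up to 0.113). A second Col22a1 probe set did not pass after sham, at 0.59 (adjusted p over probe sets = 0.132). With shared probe sets left out, Col22a1 was called in neither surgery, at 0.59 after sham (adjusted p = 0.11) and 0.47 after ischemia (adjusted p = 0.211).

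Acan was the 1 matrix gene called lower in SUMO-KD. After sham its groups overlapped, with a difference of -0.09 (SE 0.30, adjusted p = 0.929) and a 95% interval of -0.75 to 0.57. After ischemia every SUMO-KD array lay under every wild-type array, at -2.00 (SE 0.30, adjusted p = 0.00885). That call was kept under all 12 omissions (adjusted p up to 0.0397) and was lost when only the 2 compared groups were fitted (adjusted p = 0.0859). Thbs1 after ischemia was also lower on every SUMO-KD array than on every wild-type array, without passing, at -0.49 (SE 0.16, adjusted p = 0.166). Col11a1 after sham was lower on every SUMO-KD array, at -0.68 (SE 0.17, adjusted p = 0.0694), and this passed without replicate 3 of wild-type sham (-0.88, adjusted p = 0.0114).

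Markers of other cells and regions moved with genotype beside these genes. The 2 measured CA1 markers, Wfs1 and Man1a, were lower in SUMO-KD after sham by a log2 difference of -0.87 (adjusted p = 0.0144) and -0.85 (adjusted p = 0.0332). Their summed intensity was 1845 to 2371 in SUMO-KD and 3366 to 4694 in wild-type after sham, and 2197 to 2516 in SUMO-KD and 2307 to 2841 in wild-type after ischemia. The sum of 3 dentate gyrus markers was 1996 to 2822 in SUMO-KD and 1205 to 2412 in wild-type after sham, with none called. Of 9 fibroblast markers, 1 was called higher in SUMO-KD after sham, Aldh1a2 at 1.30 (adjusted p = 0.0345), and none after ischemia. Of 7 astrocyte markers, Gfap at 0.59 (adjusted p = 0.0449) and Aqp4 at 0.52 (adjusted p = 0.0253) were called higher in SUMO-KD after sham and none after ischemia. The astrocyte sums were 22030 to 23823 in SUMO-KD and 17662 to 21652 in wild-type after sham, and 21202 to 23019 in SUMO-KD and 18398 to 21459 in wild-type after ischemia. Pericyte and smooth muscle sums were lower in SUMO-KD without overlap in both surgeries. They were 2567 to 2975 against 3068 to 3282 after sham, and 2519 to 2640 against 2696 to 2951 after ischemia. Oligodendrocyte lineage sums overlapped after sham and were higher in SUMO-KD after ischemia, at 32230 to 34149 against 28798 to 31155. No marker of these 2 lists was called between genotypes. Choroid plexus RNA was present in all groups, with Ttr, a defining marker, at group means of 15714 to 22035, and none of 4 choroid plexus markers was called in any comparison. After ischemia, Ttr read 20180 to 24136 in SUMO-KD and 14655 to 16283 in wild-type, without overlap. The other markers varied within groups. On the wild-type ischemia arrays Folr1 read 73.4, 641 and 1247, Kl 187, 1043 and 1154, and Aqp1 27.7, 240 and 540. The part of these cells in the genotype differences was not tested.

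**Figure D5:**
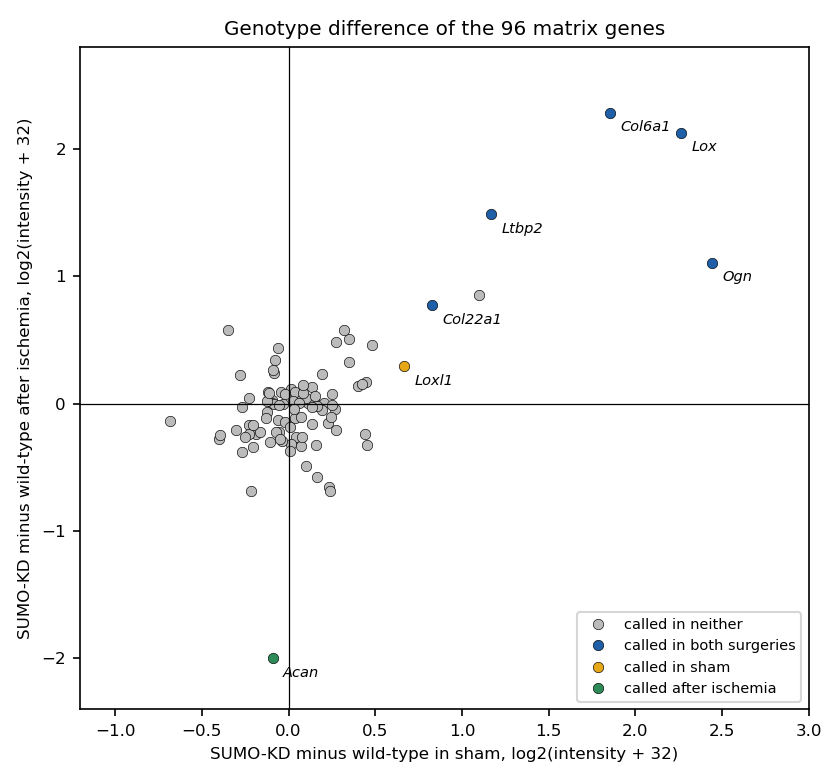
Log2 difference of intensity + 32, SUMO-KD minus wild-type, of the 96 matrix genes after sham (x axis) and after ischemia (y axis). Each point is 1 gene, and coloured points were called in at least 1 of the comparisons. Lox, Ogn, Col6a1 and Ltbp2 lie above 1 on both axes, and Acan lies near 0 after sham and at -2.00 after ischemia.

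Whether the genotypes responded differently to ischemia was tested as an interaction in limma. No matrix gene was called by limma (2 of all genes were, 0.0161%), and 8 of the 96 had an unadjusted p under 0.05 (8.33%, against 6.2% of all genes). The 3 smallest p-values belonged to Acan, Ogn and Mmp23. Acan had an interaction of -1.91 (SE 0.42, limma adjusted p = 0.425), and Ogn one of -1.33 (SE 0.31, adjusted p = 0.429). Without replicate 2 of wild-type ischemia, the Acan interaction was -2.37 and passed (adjusted p = 0.00202). Mmp23, a dim membrane-anchored protease, read 4.14, 6.61 and 5.07 after ischemia and 12.9, 34.7 and 24.7 after sham in SUMO-KD, and 7.64, 32.7 and 7.91 after ischemia and 12.5, 9.27 and 4.01 after sham in wild-type. Its interaction was -0.78 (adjusted p = 0.719). A gene called in 1 genotype and not in the other, such as Timp1, Loxl1, Mmp19 or Thbs4, is therefore not shown to respond differently.

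Known partners of these genes were counted in 6 lists. Over the 93 partners measured, 14 were called higher after ischemia in wild-type (15.1%, against 9.59% of all genes) and 3 lower (3.23%, against 8.88%). In SUMO-KD, 16 were higher (17.2%, against 6.08%) and 1 lower (1.08%, against 4.62%). Of 20 matricellular and perineuronal genes measured (of 23 listed), 4 rose in both genotypes. The glycoprotein tenascin C (Tnc) averaged 295 ± 23.2 after ischemia and 38.2 ± 12 after sham in wild-type (SD, n = 3 each) and rose by 2.23 in wild-type and 1.85 in SUMO-KD. The matricellular gene Ccn1 rose by 3.83 in wild-type and 4.30 in SUMO-KD, Ccn2 by 1.66 in wild-type and 1.84 in SUMO-KD, and the hyaluronan synthase gene Has3 by 0.59 in wild-type and 1.17 in SUMO-KD. Ccn3 fell in wild-type, at -0.74. Among 22 matrix receptors (of 24 listed), Itga6, Cd44 and Sdc1 rose in both genotypes and Sdc3 in wild-type, while Cd47 fell in wild-type. The hyaluronan receptor Cd44 averaged 287 ± 58.7 after ischemia and 48.7 ± 5.42 after sham in wild-type (SD, n = 3 each), a rise of 1.97, and rose by 1.47 in SUMO-KD. In the plasminogen system and other proteolysis (17 of 21 genes measured), Plat, which encodes tissue plasminogen activator, rose by 1.23 in wild-type and 0.82 in SUMO-KD, Plaur and Adamtsl4 also rose in both, and Adam10 fell in both. Of 12 basement membrane partners (of 13 listed), none was called in wild-type and Nid2 rose in SUMO-KD by 0.58. Of 12 collagen processing genes (of 14 listed), P4ha2 rose in wild-type and P4ha1 and Serpinh1 in SUMO-KD. In the TGF-beta axis (10 of 10 measured), Smad7, an inhibitor of the pathway, rose by 1.65 in wild-type and 0.80 in SUMO-KD, Tgfbr1 rose in wild-type, and Tgfb2 and Tgif1 rose in SUMO-KD.

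Between genotypes, 1 of the 93 partners was called higher in SUMO-KD after sham (1.08%, against 1.5% of all genes) and 2 lower (2.15%, against 0.597%). After ischemia, 1 was higher (1.08%, against 1.0%) and 2 were lower (2.15%, against 0.557%). Tgfb2, a TGF-beta ligand, averaged 361 ± 71 in SUMO-KD and 698 ± 73.4 in wild-type after sham, and 525 ± 34.8 in SUMO-KD and 852 ± 57.7 in wild-type after ischemia (SD, n = 3 each). It was lower in SUMO-KD, at -0.91 after sham (adjusted p = 0.00496) and -0.67 after ischemia (adjusted p = 0.0316). Smad7 was lower in SUMO-KD after ischemia, at -0.99 (adjusted p = 0.00785), and Ccn3 higher, at 1.01 (adjusted p = 0.00546). After sham, Has3 was lower in SUMO-KD at -0.78 (adjusted p = 0.0473) and Sdc3 higher at 0.54 (adjusted p = 0.00711).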

How the data were processed

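Total RNA from pooled CA1 tissue was amplified, labelled with biotin and hybridised, 1 sample per Affymetrix array, per the labels' protocols. The deposited values were linear intensities, 1 per probe set and array, with a trimmed mean (2% cut at each end) of 500.2 on every array. Partek 6.6 and RMA are named, with no role, in the submitters' processing notes. Linear values scaled in this way are not RMA output, and no source used here gives the step behind them.

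The platform annotation gave 1 gene symbol for 20393 of the 22690 probe sets, several for 691 and none for 1606. Each gene took its probe set with the highest mean log2(intensity + 32), which gave 12394 genes, among them the 96 matrix genes, of which 46 had several probe sets. The plan covered either scale, and the log2 was taken here because the values were linear. The means of the 4 groups entered 1 model of all 12 arrays (limma 3.58.1 under R 4.3.3, lmFit and eBayes), tested two-sided with Benjamini-Hochberg adjustment over all genes. Replicate numbers are not stated to pair the samples and were not taken as pairs. The 42 genes named by rule included those called in any comparison and the 10 with the highest mean. Acan, Ogn and Mmp23 were included for the smallest unadjusted interaction p in limma. The rest came from a list of lecticans, inhibitors, proteases, collagens and others. Members and lists were chosen with earlier results of these data known. Promoter windows are RefSeq's for GRCm38.p6, matched by symbol for 64 of the 96 genes. Alternatives were the offset, probe set choice, a dim filter, 2 normalizations, the replicate block, the compared groups alone, eBayes settings, array weights and omission of each array. The fitting procedure was tested on simulated data with known changes. The number of arrays limits the precision.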

Additional observations from a re-analysis of the deposited data

How the results depend on the processing

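No call reversed direction under any alternative. Of 47 calls of single genes, 30 were kept in all 12 omissions of 1 array and 31 in all other settings. Calls that ended with the compared groups alone were Acan, Col22a1, Ltbp2 and Ogn after ischemia and Col22a1 and Ltbp2 after sham between genotypes, Loxl1, Mmp19 and Thbs4 for ischemia in wild-type, and Lamc1 in SUMO-KD (adjusted p up to 0.117). With the mean of probe sets, calls of Mmp19 in wild-type (0.11, adjusted p = 0.647), of Adamts5 (0.21, 0.239) and Col11a1 (0.49, 0.176) in SUMO-KD, and of Col5a1 in the mean of both genotypes (0.18, 0.144) ended. Among the genes named by rule, that setting added Vcan as lower in wild-type (-0.34, 0.047). It also added Lox as higher in SUMO-KD (0.45, 0.0492) and in the mean of both genotypes (0.33, 0.0211). The count of genes lower after ischemia in wild-type (1) was 0 with no offset, with an offset of 16, without shared probe sets, with the replicate block, with the compared groups alone and with array weights, 3 with the mean of probe sets, and 0 to 1 over the omissions. In SUMO-KD the count lower (1) was 2 with the mean of probe sets and with array weights and 1 to 2 over the omissions, and the count higher (8) was 5 to 8. For the mean of both genotypes the count lower (2) was 4 with the mean of probe sets and with array weights, 1 with trend and robust eBayes, and 1 to 4 over the omissions. After sham, the count higher in SUMO-KD (6) was 3 to 6 over the omissions. The count lower (0) was 1 with dim genes left out, with the replicate block and with array weights, and 0 to 1 over the omissions. That gene was Col11a1, with an adjusted p of 0.0476 without dim genes, 0.0322 with the replicate block and 0.037 with array weights. After ischemia, the count higher in SUMO-KD (5) was 2 with no offset and with the compared groups alone and 2 to 5 over the omissions, and the count lower (1) was 0 with the compared groups alone and 1 in every omission. The interaction had 0 to 1 genes lower over the omissions. Fitting the compared groups alone uses fewer arrays, and for the other settings the cause was not tested.

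Same-numbered samples of different groups had correlations of their deviations of -0.166 to 0.276 (median 0.0585, 18 pairs). Samples with other numbers had correlations of -0.363 to 0.338 (median -0.0254, 36 pairs). The labels state no pairing and the ranges overlapped, so the replicate numbers were not taken as pairs. A weak pairing is not excluded by these values, and the replicate block was fitted as an alternative. The replicate block gave 0 genes lower after ischemia in wild-type and 1 gene lower in SUMO-KD after sham, against 1 and 0. With it, ischemia calls of Loxl1 and Thbs4 in wild-type and Adamts5 in SUMO-KD and the genotype calls of Ltbp2 after sham and Col22a1 after ischemia were lost (adjusted p 0.0504 to 0.067), and Timp3 passed in wild-type (0.48, adjusted p = 0.0425) and in the mean (0.31, 0.0467), as Col11a1 (0.34, 0.0247) and Mmp19 (0.36, 0.0258) did in the mean. Of the 96 genes, 28 had a mean log2 intensity under 5, where signal over background limits what a change can show.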

Other observations

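Probe sets that list several genes were left out of all tests, and 2 of them name a matrix gene. The one listing Pald1 and Thbs1 averaged 903 ± 194 after ischemia and 70.5 ± 6.06 after sham in wild-type, and 653 ± 179 after ischemia and 79.5 ± 13 after sham in SUMO-KD (SD, n = 3 each). Its ischemia arrays lay above its sham arrays in both genotypes, as the Thbs1 probe sets did, and which of its genes it measured was not tested. The one listing Gm21451 and Loxl2 stayed at or under 23.6 on all 12 arrays.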
